A study of Mus musculus with 8 samples.

Results

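The genes described here encode the subunits and activators of the proteasome. They were chosen as every gene of the array annotation whose symbol begins with Psma, Psmb, Psmc, Psmd or Psme followed by a number, read by probe sets annotated to 1 symbol only. The rule took 44 of the 18193 genes represented on the arrays, with 91 probe sets. Of these genes, 36 encode constitutive subunits, their base chaperones or general activators, and 4 encode immune members (Psmb8, Psmb9, Psmb10 and Psme1). Psma8 and Psmb11 encode subunits restricted to other tissues, and Psmc3ip and Psme3ip1 match the pattern by name without encoding a subunit. The fifth immune member, Psme2, had its probe set annotated to 2 symbols and was not analysed here.

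The proteasome degrades proteins that carry ubiquitin chains. Its barrel-shaped core particle stacks rings of alpha subunits, which form the gate, on rings of beta subunits, some of which carry the catalytic sites. The regulatory particle caps the barrel with a ring of ATPases that unfold substrates and a lid that recognises and removes ubiquitin. Cells exposed to interferon gamma, and many leukocytes at rest, exchange the catalytic subunits Psmb5, Psmb6 and Psmb7 for the immune subunits Psmb8, Psmb9 and Psmb10. The resulting immunoproteasome favours peptides that fit MHC class I molecules.

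Single-channel expression arrays measured RNA from mammary tumours of 8 female mice. All carried the genotype MMTV-PyMT on the FVB/N-Tg(MMTV-PyVT)634Mul/J strain. The transgene, carried by both groups, expresses the polyoma middle T antigen from the mouse mammary tumour virus promoter, which acts mainly in mammary epithelium. In the SKI606 group, 4 mice received SKI-606 at 100 mg/kg by oral gavage, formulated in methocellulose and Tween 80. SKI-606, also named bosutinib, blocks kinases of the Src and Abl families. The 4 mice of the vehicle group are labelled only as vehicle-treated. Age, length of treatment and tumour size were not given in the sources used here. The series' stated interest is tumour differentiation under the inhibitor.

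The deposited values were turned back into array signals and quantile normalized, and are given below as normalized signals in array units. A log2 fold change is SKI606 minus vehicle on log2(signal + 16), with its standard error from limma and 4 samples in each group. Array medians before normalization ran from 15 to 23, and 27.82% to 41.65% of probe sets per array read below 10, so dim genes were poorly resolved. Vehicle 3 stood apart on both, with a median of 23 against 15 to 18 in the other samples. Its share below 10 was 27.82%, against 34.05% to 41.65% in the others. Luminal epithelial markers were high in all 8 samples, with summed signals of 21572 to 27508, so the markers of the labelled tissue were present. Squamous epithelial markers set 3 samples apart: their summed signal was 9526 in vehicle 3, 14716 in SKI606 1 and 16290 in SKI606 4, against 194 to 622 in the other 5. On the ratio of 3' to 5' actin probe sets, SKI606 1 stood lowest at 1.66, close to vehicle 1 at 1.77. Vehicle 3 stood highest at 3.83, close to vehicle 4 at 3.78, and SKI606 4 stood at 2.62. In bulk tumour RNA, fewer cells of a type and less RNA per cell cannot be told apart.

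The windows upstream of Psmb8 and Psmb9 are shown because these immune genes flank the peptide transporter gene Tap1 and differ in the motif of the interferon gamma pathway. On chromosome 17 the gene order is Psmb9, Tap1, Psmb8 and Tap2. The 250 bases before the RefSeq start of each gene (GRCm38.p6) are chr17:34197945-34198194 on the plus strand for Psmb8 and chr17:34187331-34187580 on the minus strand for Psmb9. Capitals mark the match to TTCNNNGAA, the letters of the interferon gamma activated site.
Psmb8: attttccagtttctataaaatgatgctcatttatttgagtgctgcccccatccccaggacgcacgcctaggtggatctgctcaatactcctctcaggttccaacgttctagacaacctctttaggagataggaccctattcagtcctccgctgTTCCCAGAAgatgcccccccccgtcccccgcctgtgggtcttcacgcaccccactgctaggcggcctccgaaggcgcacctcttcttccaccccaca
Psmb9: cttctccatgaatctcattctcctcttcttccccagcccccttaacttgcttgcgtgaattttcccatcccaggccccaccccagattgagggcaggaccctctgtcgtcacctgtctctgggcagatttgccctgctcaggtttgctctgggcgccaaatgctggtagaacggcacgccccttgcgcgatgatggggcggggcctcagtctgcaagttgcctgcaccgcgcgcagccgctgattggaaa
The Psmb8 match, TTCCCAGAA, begins 97 bases before the start, and the Psmb9 window holds none. Matches on either strand, in any window of a gene, were found for 8.13% of 27025 genes. They were found for 1 of the 4 immune members and 0 of the 30 constitutive members with a window. The interferon-stimulated element was found for 3 of the 30 constitutive members (Psmb3, Psmd4 and Psmd9) and 0 of the 4 immune members. Its share over all 27025 genes was 3.46%. The antioxidant element, TGACNNNGC, which the proteasome regulators Nfe2l1 and Nfe2l2 bind, was found for 11.5% of these genes. It was found for 5 of 30 constitutive members (Psmb5, Psmb6, Psmc6, Psmd12 and Psmd9). It was in 0 of the 4 immune members. These matches describe letters in the windows and are not binding sites. None of these motifs contains another.

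No proteasome gene passed the test across all genes. With limma and Benjamini-Hochberg adjustment, 0 of the 44 members had an adjusted p under 0.05, against 0.0% of the 18193 genes, and the smallest adjusted p was 0.503 among members and 0.422 among all genes. At an unadjusted p under 0.05, 1 member was lower (Psma7) against 3.97% of all genes, and 0 were higher against 5.76%. For none of the 44 did all 4 SKI606 values lie on one side of the 4 vehicle values, against 4.42% of all genes. The immune members were above 0 in 4 of 4 cases, against 47.1% of all genes, with a median log2 fold change of 0.43 over 4 genes, while the 36 constitutive members had a median of -0.11. The median of all genes was -0.02. Of the constitutive members 24 of 36 (66.7%) were below 0, against 52.9% of all genes, but on the log2 of the deposited ratios 12 of 36 were below 0 (33.3%) and their median was 0.11, where the median of all genes was itself 0.16. The immune median was 0.70 on the deposited ratios. Without the 3 samples of high squamous signal the constitutive median was -0.01 and the immune median 0.26.

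**Figure D1:**
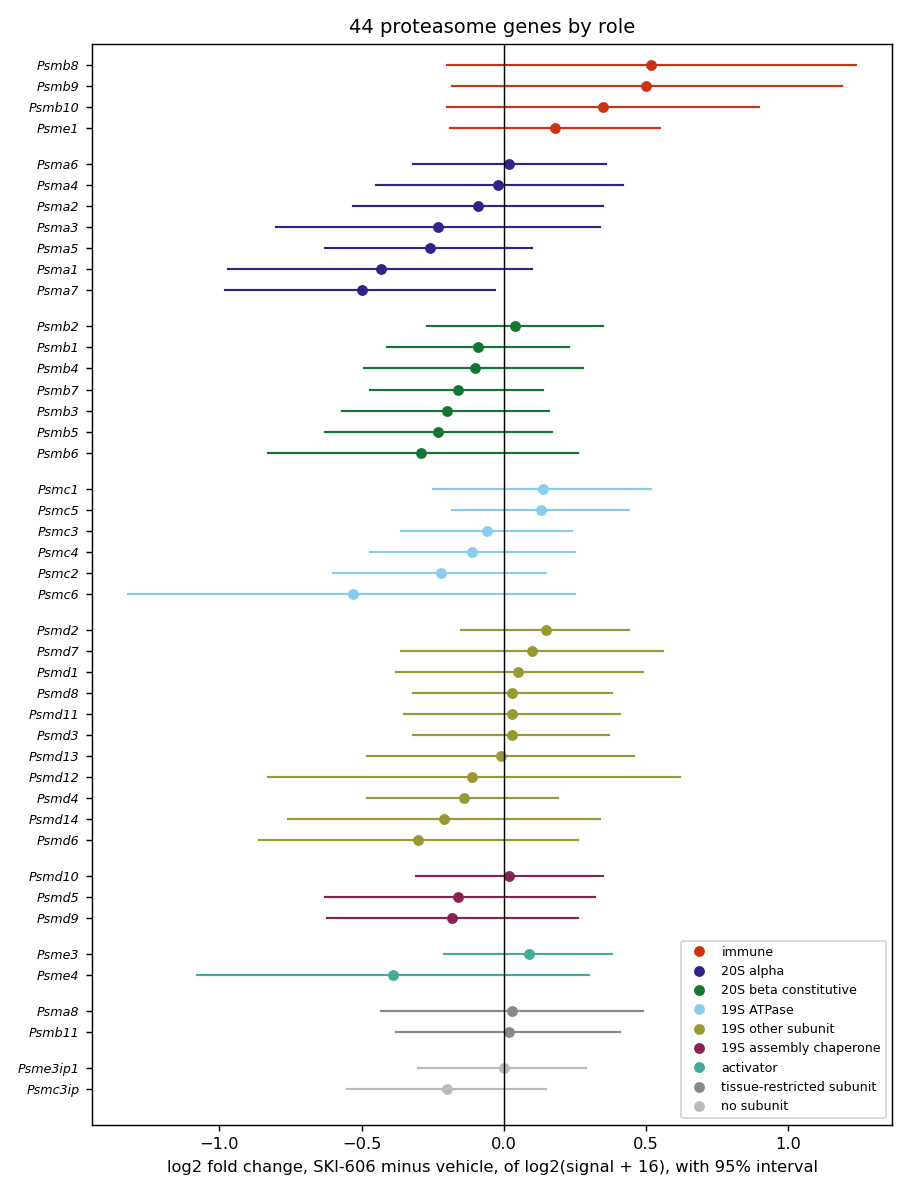
Log2 fold change (SKI606 minus vehicle, horizontal axis) with its 95% interval from limma for the proteasome members, grouped by role, with 4 samples in each group. The intervals of Psmb8, Psmb9 and Psmb10 extend furthest to the right, and those of all 4 immune members include 0.

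Psmb8 encodes the immune subunit with chymotrypsin-like activity. Its normalized signal was 391, 514, 229 and 796 in the vehicle samples, in the order 1 to 4 used throughout, and 610, 574, 792 and 593 in the treated ones. The vehicle values span both ends of the range and enclose every SKI606 value. The log2 fold change was 0.52 ± 0.32 (SE; 95% interval -0.20 to 1.24, limma adjusted p = 0.608).

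Psmb9, the immune counterpart of Psmb6, read 138, 184, 88.9 and 269 in the vehicle samples and 222, 169, 322 and 234 in the SKI606 samples. Vehicle 4 overlapped the treated samples and SKI606 2 fell among the vehicle values. Its log2 fold change was 0.50 ± 0.30 (limma adjusted p = 0.600). Psmb10, the immune counterpart of Psmb7, read 459, 514, 283 and 641 against 583, 491, 730 and 560, a log2 fold change of 0.35 ± 0.24 (limma adjusted p = 0.643). Again only vehicle 3 lay far below the rest. Psme1 encodes the alpha chain of the interferon-inducible activator that opens the core's gate. It read 1872, 2334, 1702 and 2194 against 2198, 2309, 2694 and 1971, a log2 fold change of 0.18 ± 0.16 (limma adjusted p = 0.725).

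All 4 immune members had their lowest value in vehicle 3. Psmb9, Psmb10 and Psme1 had their highest in SKI606 3, and Psmb8 in vehicle 4. The spread among vehicle samples was therefore wide: the median SD on the log2 scale was 0.54 over the immune members and 0.21 over the constitutive ones, whereas in the SKI606 group the medians were 0.22 and 0.23. Without vehicle 3 the immune median log2 fold change was 0.18, and without vehicle 4 it was 0.62.

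**Figure D2:**
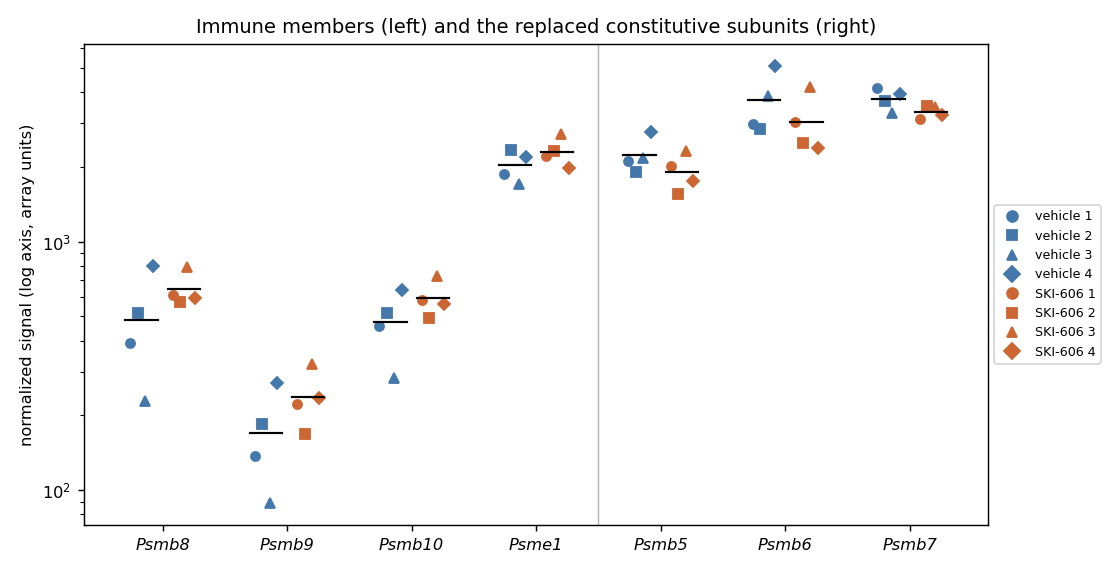
Normalized signal (vertical axis, array units) of the immune members and of their constitutive counterparts in each of the 4 vehicle and 4 SKI606 samples, with bars at the group means. Vehicle 3 is the lowest sample for all 4 immune members, and the groups overlap for every gene shown.

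The exchange of catalytic subunits was examined within each sample, as the log2 level of the immune gene minus that of the constitutive gene whose place it takes. The size of this difference has no meaning of its own, because probe sets differ in brightness, but its shift between samples can be compared. For the 3 pairs, all 70 assignments of samples to groups were enumerated in an exact permutation test, two-sided, whose smallest p is 0.0286, with Benjamini-Hochberg adjustment over the 3. The pairs were examined with the immune and constitutive values of these samples already known.

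Psmb8 minus Psmb5 was -2.38, -1.86, -3.15 and -1.77 in the vehicle samples and -1.69, -1.41, -1.52 and -1.53 in the SKI606 samples. Every SKI606 value lay above every vehicle value, although vehicle 4 and SKI606 1 were only narrowly apart. The means were -2.29 ± 0.64 and -1.54 ± 0.12 (SD, n = 4), a difference of 0.75 ± 0.32 (SE; exact permutation p = 0.0286, adjusted p = 0.0429). Psmb5 itself, the constitutive chymotrypsin-like subunit, read 2108, 1905, 2165 and 2753 in vehicle and 2005, 1552, 2307 and 1747 in SKI606 samples, with overlapping groups and a log2 fold change of -0.23 ± 0.18 (limma adjusted p = 0.679).

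Psmb9 minus Psmb6 was -4.27, -3.84, -5.21 and -4.16 in vehicle and -3.67, -3.75, -3.63 and -3.26 in SKI606 samples. These groups did not overlap either, although vehicle 2 (-3.84) and SKI606 2 (-3.75) were only narrowly apart. The means were -4.37 ± 0.59 and -3.58 ± 0.22 (SD, n = 4), a difference of 0.79 ± 0.31 (SE; exact permutation p = 0.0286, adjusted p = 0.0429). Psmb6, the caspase-like subunit, read 2975, 2838, 3863 and 5086 against 3024, 2481, 4172 and 2381, a log2 fold change of -0.29 ± 0.24 (limma adjusted p = 0.708). Vehicle 4 was its brightest sample and SKI606 4 its dimmest.

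Psmb10 minus Psmb7 was -3.12, -2.80, -3.46 and -2.58 in vehicle and -2.39, -2.80, -2.23 and -2.49 in SKI606 samples. SKI606 2 fell within the vehicle range, and the difference of 0.51 ± 0.23 (SE, n = 4) did not pass (exact permutation p = 0.0857, adjusted p = 0.0857). Psmb7, the trypsin-like subunit, read 4128, 3669, 3272 and 3903 against 3120, 3512, 3473 and 3226, a log2 fold change of -0.16 ± 0.14 (limma adjusted p = 0.705).

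The sizes of the differences rested in part on vehicle 3. Without it, Psmb8 minus Psmb5 differed by 0.46 and Psmb9 minus Psmb6 by 0.51 between the groups (exact permutation p = 0.0286 for both, n = 3 and 4). Leaving out any 1 SKI606 sample gave differences of 0.71 to 0.81 for the Psmb8 pair (exact permutation p = 0.0857 to 0.114) and 0.69 to 0.85 for the Psmb9 pair (exact permutation p = 0.0571). Without the 3 samples of high squamous signal the differences were 0.55 and 0.41, with exact permutation p = 0.200 for both, where the smallest p allowed is 0.1. With all probe sets of each gene averaged, the Psmb8 pair differed by 0.53 (exact permutation p = 0.0571). The second Psmb8 probe set was dim, with a mean signal of 34.6 and a log2 fold change of 0.08 ± 0.27.

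**Figure D3:**
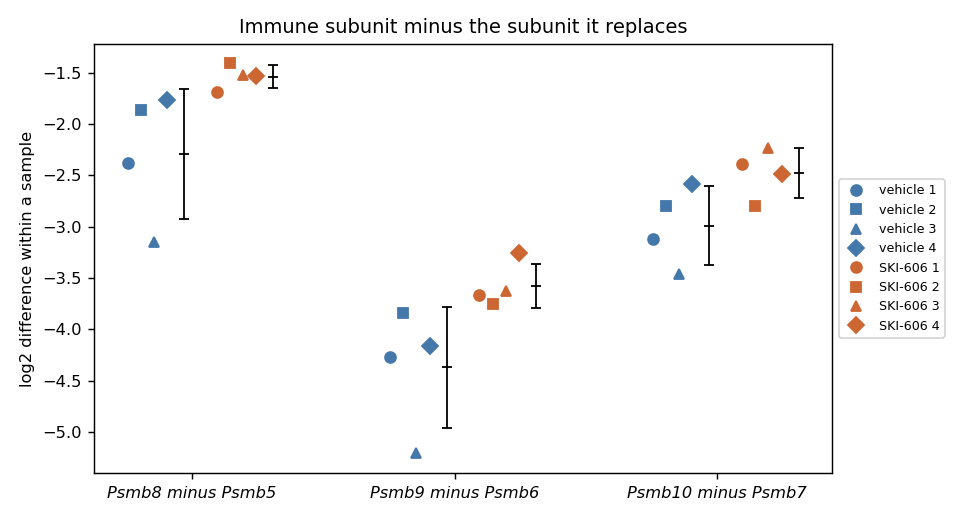
Log2 level of each immune catalytic subunit minus that of its constitutive counterpart (vertical axis, log2 units) in the 4 vehicle and 4 SKI606 samples. Black bars mark the group means, with whiskers of the SD. The groups do not overlap for the Psmb8 and Psmb9 pairs, vehicle 3 is the lowest point in all 3 pairs, and SKI606 2 overlaps the vehicle samples for the Psmb10 pair.

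Markers of other cell types were set beside the immune members, and 0 of the markers passed the adjusted limma test. Over all genes, 47.1% were above 0 and 2.39% did not overlap between the groups in the higher direction. These shares stand beside each count below. All 5 measured leukocyte markers were above 0 on the log2 fold change scale. Their summed signal was 771 to 1133 in vehicle and 1198 to 3212 in SKI606 samples, but sums weigh bright genes most. Taken singly, each of the 5 overlapped between the groups. All 7 macrophage and dendritic cell markers were above 0, with sums of 3961 to 6266 against 8312 to 14649. Singly, Cd68, Fcgr1 and H2-Ab1 overlapped between the groups, while Adgre1, Csf1r, Itgax and Cd74 did not. All 7 of the T and NK cell markers represented, of 8 in the list, were above 0. Their sums of 61 to 177 against 194 to 258 rest on dim values. The defining markers Cd3d and Cd4 were near the floor. Vehicle signals were also low for Cd3g (7.0, 14.4, 4.9 and 14.5) and Cd3e (4.4, 52.6, 12.4 and 5.5). Singly, Cd3e, Cd3d, Cd8a and Cd4 overlapped between the groups, while Cd3g, Nkg7 and Gzmb did not. B cell markers were above 0 in 1 of 3 represented, and all 3 were near the floor. Fibroblast markers were above 0 in 5 of 5, with sums of 7352 to 8667 in vehicle and 10040 to 18472 in SKI606 samples. Among them Dcn and Lum overlapped singly, while Col1a1, Col1a2 and Pdgfra did not. Endothelial markers were above 0 in 4 of 4 (194 to 368 against 289 to 617), each with overlapping groups. Skeletal muscle markers had a summed signal of 14864 in vehicle 1, 10358 in SKI606 2 and 4770 in SKI606 1, with a lowest value of 53 in SKI606 4.

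The order of samples was compared through mean deviations from the average of all 8 samples. The mean deviation of the leukocyte markers was highest in SKI606 4 (1.29) and SKI606 1 (0.52), where the immune members stood at 0.11 and 0.15. The immune members were highest in SKI606 3 (0.52), where the leukocyte markers stood at -0.19, the T and NK cell markers at 0.18 and the macrophage and dendritic cell markers at 0.11. They were next highest in vehicle 4 (0.34), where these lists stood at -0.31, -0.19 and -0.20. Vehicle 3 was lowest for the immune members (-0.82) and for all 3 of these lists (-0.69, -0.62 and -0.95). The part of leukocytes, stroma or muscle in the immune subunit values was not tested.

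**Figure D4:**
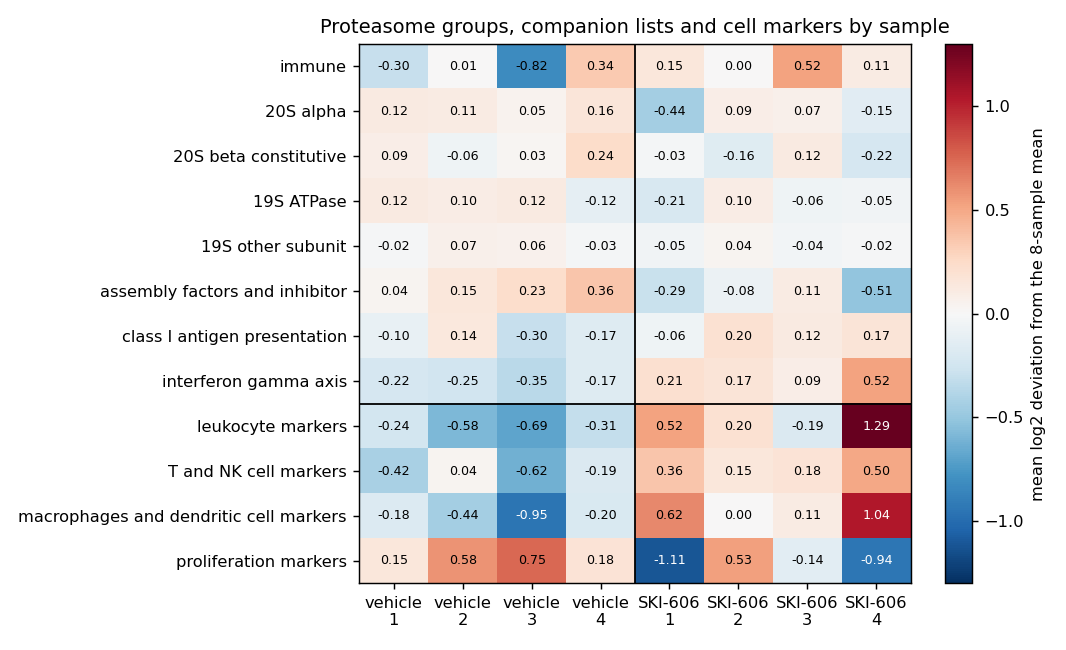
Mean deviation of each gene set from its own average over the 8 samples (colour and printed value, log2 units), with gene sets in rows and samples in columns. The immune members are lowest in vehicle 3 (-0.82) and highest in SKI606 3 (0.52), while the leukocyte markers are highest in SKI606 4 (1.29).

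Among the alpha subunits of the core, which form its gated outer rings, 6 of 7 were below 0, with a median log2 fold change of -0.23. Psma7 read 2932, 2083, 2563 and 3074 in vehicle and 2088, 1529, 2479 and 1489 in SKI606 samples. SKI606 3 lay within the vehicle range, and SKI606 1 barely above vehicle 2. Its log2 fold change was -0.50 ± 0.21, which did not pass the adjustment (limma unadjusted p = 0.0388, adjusted p = 0.503), and its second bright probe set gave -0.64. Psma1 read 910, 1212, 874 and 677 against 446, 859, 730 and 681, a log2 fold change of -0.43 ± 0.24, with its dimmest sample in SKI606 1. Psma5 had a log2 fold change of -0.26 ± 0.16. The remaining 4, Psma2, Psma3, Psma4 and Psma6, ran from -0.23 to 0.02. Without SKI606 1 the median of the alpha subunits was 0.02, and without the 3 samples of high squamous signal it was 0.05.

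The constitutive beta subunits showed a median of -0.16, with 6 of 7 below 0 and Psmb2 at 0.04 ± 0.14. Besides Psmb5, Psmb6 and Psmb7, the structural subunit Psmb3 had a log2 fold change of -0.20 ± 0.16. The structural subunits Psmb1 and Psmb4 stood at -0.09 ± 0.14 and -0.10 ± 0.17. On the deposited ratios the medians of the alpha and beta subunits were -0.02 and -0.01, where the median of all genes was 0.16.

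Of the ATPases of the regulatory particle, 4 of 6 were below 0, with a median of -0.08. Psmc6 read 552, 587, 552 and 325 in vehicle and 153, 536, 394 and 379 in SKI606 samples. Vehicle 4 and SKI606 1 lay below the other samples of their groups, and the log2 fold change was -0.53 ± 0.35 (limma adjusted p = 0.630). Its second bright probe set gave -0.56. Psmc2 stood at -0.22 ± 0.17 and Psmc5 at 0.13 ± 0.14. Without the 3 samples of high squamous signal Psmc2 was 0.00212, on the other side of 0.

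The 11 other subunits of the regulatory particle were split, with 6 above and 5 below 0 and a median of 0.03. They include the ubiquitin receptor Psmd4 at -0.14 ± 0.15, the scaffold subunit Psmd2 at 0.15 ± 0.13 and the lid subunit Psmd6 at -0.30 ± 0.25. Psmd14, the lid's deubiquitinating enzyme, stood at -0.21 ± 0.25. Psmd12 read 1405 in SKI606 2 and 415 to 836 in the other 7 samples, and its log2 fold change was -0.11 ± 0.32. Psmd4 was above 0 on the deposited ratios (0.09) and with all its probe sets averaged (0.30). Psmd2 was below 0 with its probe sets averaged (-0.10). These 2 averages took in dim probe sets, of mean signal 14.4 for Psmd4 (log2 fold change 0.89) and 7.48 for Psmd2 (-0.35). Psmd6 was above 0 without the 3 samples of high squamous signal (0.08). The chaperones that assemble the base, Psmd5, Psmd9 and Psmd10, stood at -0.16 ± 0.21, -0.18 ± 0.20 and 0.02 ± 0.15.

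Psme4 and Psme3 encode general activators that cap the core in place of the regulatory particle, chiefly in the nucleus. Psme4 read 416, 509, 401 and 293 in vehicle and 155, 463, 368 and 294 in SKI606 samples. SKI606 1 alone lay below the vehicle range, and the log2 fold change was -0.39 ± 0.31 (limma adjusted p = 0.682). Without the 3 samples of high squamous signal it was 0.06. Psme3 stood at 0.09 ± 0.13, and its probe sets differed in sign, from -0.28 to 0.09.

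SKI606 1 held the lowest value for 14 of the 36 constitutive members and the highest for 6. The mean deviation of the 36 was 0.05 to 0.07 in each vehicle sample, -0.19 in SKI606 1, -0.11 in SKI606 4 and 0.03 in both SKI606 2 and SKI606 3. Proliferation markers were also lowest in SKI606 1 (-1.11) and SKI606 4 (-0.94). Otherwise their order differed: they stood at 0.53 in SKI606 2, above vehicle 1 (0.15) and vehicle 4 (0.18), and at -0.14 in SKI606 3. Their summed signal was 1400 to 2095 in vehicle and 544 to 1806 in SKI606 samples, and 4 of the 5 in the list were represented, all 4 below 0. The part of proliferation, squamous content or RNA quality in the constitutive values was not tested.

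Of the members that are not part of the standard particle, Psma8, the alpha subunit of germ cells, and Psmb11, the beta subunit of thymic cortical epithelium, had mean signals of 3.64 to 4.28 in both groups, at the floor of the arrays. The other 42 members had a mean signal of at least 32. Psmc3ip, a meiotic recombination partner named for its binding to Psmc3, stood at -0.20 ± 0.16. Psme3ip1 stood at -0.00 ± 0.13 and changed sign under several settings.

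Among 15 members with at least 2 bright probe sets, 5 had probe sets that differed in sign (Psma6, Psmb4, Psmd11, Psmd4 and Psme3). Of all 91 probe sets, 2 were higher at an unadjusted limma p under 0.05, against 4.59% of the 45037 probe sets tested, and 3 were lower, against 3.79%. Neither count is above its background share.

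The factors that build the core read lower as a list, without any passing the adjusted test. Psmg1 to Psmg4 encode the chaperones that arrange the alpha ring, Pomp the factor that completes the beta ring, and Psmf1 an inhibitor of the core. All 6 were below 0, with a median log2 fold change of -0.41, against -0.11 for the constitutive subunits and -0.02 for all genes. Psmg4 read 370, 492, 615 and 572 in vehicle and 306, 360, 456 and 255 in SKI606 samples, a log2 fold change of -0.56 ± 0.22 (limma adjusted p = 0.499). The groups overlapped in that vehicle 1 lay below SKI606 3.

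Psmg1 read 550, 506, 643 and 837 against 457, 437, 568 and 326, a log2 fold change of -0.49 ± 0.21 (limma adjusted p = 0.512). SKI606 4 was the dimmest sample for all of Psmg1, Psmg2, Psmg3, Psmg4 and Psmf1. Psmg3 stood at -0.51 ± 0.26, Psmg2 at -0.32 ± 0.18, Pomp at -0.23 ± 0.20 and Psmf1 at -0.21 ± 0.19. At an unadjusted limma p under 0.05, Psmg4 and Psmg1 were lower, 2 of 6, against 3.97% of all genes. The list's median was -0.15 on the deposited ratios and -0.18 without the 3 samples of high squamous signal.

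**Figure D5:**
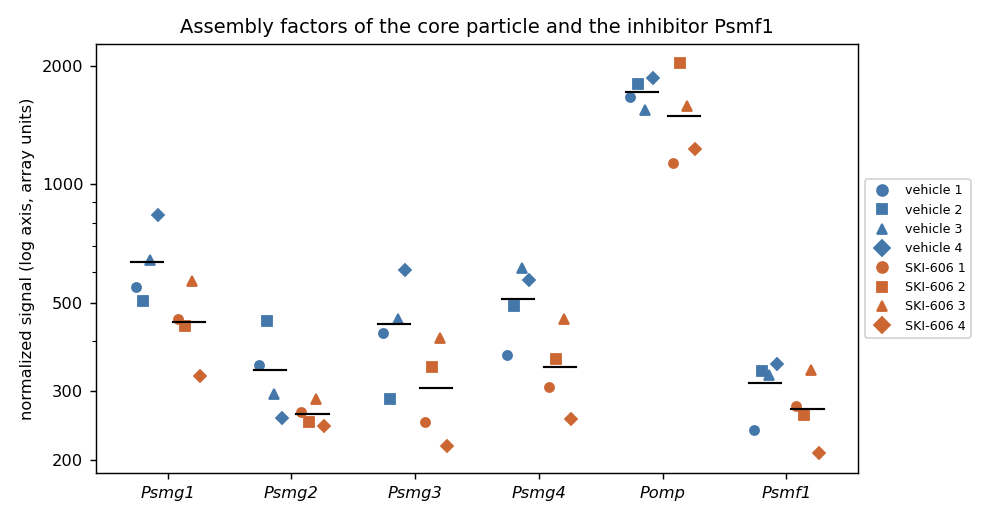
Normalized signal (vertical log axis, array units) of the assembly factors Psmg1 to Psmg4 and Pomp and of the inhibitor Psmf1 in the 4 vehicle and 4 SKI606 samples, with bars at the group means. The SKI606 mean is below the vehicle mean for all 6 genes, the groups overlap for each, and SKI606 4 is the lowest sample for all but Pomp.

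Proteins that bind the proteasome or bring substrates to it were all below 0 in the 11 represented of 13 listed, with a median of -0.19. The deubiquitinating enzyme Uchl5 stood at -0.59 ± 0.36, the proteasome-binding factor Zfand5 at -0.44 ± 0.23 and the ubiquitin ligase Ube3c at -0.30 ± 0.16, with limma adjusted p of 0.546 or more in the list. The median was -0.35 without vehicle 4 and -0.34 without SKI606 2, and without SKI606 1 9 of 11 were below 0. On the deposited ratios the median was 0.05, and without the 3 samples of high squamous signal it was -0.00. Among regulators of proteasome genes, 4 of 5 represented of 6 listed were above 0, with a median of 0.08. The transcription factor Stat3 stood at 0.40 ± 0.18, Nfe2l1, which drives subunit genes when the proteasome is impaired, at 0.35 ± 0.17, and Ngly1, the glycanase that activates it, at -0.26 ± 0.23. The unfoldase list built on p97 (Vcp) was split 3 and 3, with its cofactors Nploc4 at 0.44 ± 0.19, Faf1 at -0.36 ± 0.18 and Ufd1 at -0.18 ± 0.15. Of 6 ubiquitin genes and activating enzymes listed, only Uba6 was represented, at -0.30 ± 0.26.

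Genes that load the peptides of the proteasome onto MHC class I were above 0 in 10 of 12 cases, with a median of 0.21 and limma adjusted p of 0.479 or more. The median was 0.08 with no quantile step, 0.11 without vehicle 3 and 0.35 without vehicle 2. Tapbp, the tapasin chaperone, read 1731, 1744, 1366 and 1954 in vehicle and 2334, 2064, 2354 and 2440 in SKI606 samples, a log2 fold change of 0.44 ± 0.15 (limma adjusted p = 0.479). Every SKI606 value lay above every vehicle value. Tap2, a chain of the peptide transporter and the neighbour of Psmb8, read 232, 178, 152 and 243 against 293, 250, 281 and 262, also without overlap, a log2 fold change of 0.43 ± 0.17 (limma adjusted p = 0.501). These were 2 of 12 genes without overlap in the higher direction, against 2.39% of all genes. Tap1, the transporter's other chain and the neighbour of both Psmb9 and Psmb8, stood at 0.05 ± 0.18. Nlrc5, the activator of class I genes, stood at 0.35 ± 0.25 at signals of 11.4 to 42.2.

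In the interferon gamma axis, 9 of 11 represented of 12 listed were above 0, with a median of 0.52, and 0 passed the adjusted limma test, whose smallest value was 0.422. At an unadjusted limma p under 0.05, 6 of 11 were higher, against 5.76% of all genes. Cxcl9, an interferon-induced chemokine, read 2.4, 2.0, 2.4 and 8.0 in vehicle and 13.4, 49.9, 31.6 and 74.1 in SKI606 samples, a log2 fold change of 1.46 ± 0.31 (limma adjusted p = 0.422). The groups did not overlap, but the vehicle values lay at the floor of the arrays, so the size of this value is set by the pseudocount and ran from 0.62 to 3.58 over the settings tried. Gbp2, an interferon-induced GTPase, stood at 0.84 ± 0.27 without overlap, the myeloid interferon regulatory factor Irf8 at 0.74 ± 0.26 and Irf1, the factor that induces immune subunits, at 0.52 ± 0.20. Ifng itself was near the floor, with signals of 0.1 to 10.2. The list's median was 0.24 without the 3 samples of high squamous signal.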

How the data were processed

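Total RNA of 8 tumours was hybridised to Affymetrix arrays, 1 array per sample. The authors deposited linear ratios, in which, from the values themselves, each signal had been divided by its array's median and by the probe set's median, with a constant divisor for dim probe sets. The software and scaling were not given in the sources used here. Whole-number signals were recovered from these ratios and gave back the deposited values of all 45101 probe sets within a relative 0.0001. The recovered signals were quantile normalized, 16 was added and log2 taken. After 64 control probe sets were left out, 45037 were tested, of which 34945 had 1 symbol, 932 several and 9160 none in the platform annotation. A gene was read by its brightest probe set, which gave 18193 genes.

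Groups were compared with lmFit and eBayes of limma 3.58.1 in R 4.3.3, with Benjamini-Hochberg adjustment over all genes and a threshold of 0.05. Differences within samples were compared by exact permutation over samples (Python 3.11.15). The scripts were tested on simulated data. Per the labels' protocols each sample is a separate mouse, and p-values measure the spread between these samples. Members and gene lists were chosen with earlier results of these data known. Named with values are the immune members, their counterparts, up to 3 genes of smallest unadjusted p in each structural group and list, members whose groups do not overlap, and matches that encode no subunit; other members named for their function or for 1 sample that stood apart (Psmb1, Psmb2, Psmb4, Psmd5, Psmd9, Psmd10, Psmd12, Psmd14), and Tap1, Irf1, Ifng, Psmg2, Pomp and Psmf1, were chosen after their values were seen. Motifs were searched on both strands in RefSeq windows, which 34 of 40 constitutive and immune members matched.

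Alternatives were the deposited ratios, no quantile step, other pseudocounts (64 and 1), probe sets of mean signal at least 32, the mean of all probe sets, a replicate block, array weights, each sample left out, the 3 samples of high squamous signal left out, a threshold of 0.1 and, added after the data were seen, Psma8 and Psmb11 among the constitutive members.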

Additional observations from a re-analysis of the deposited data

Results flagged for a closer look

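Within groups of 4, 5 single values stood far from the other 3, among 90 groups examined (42 genes and the 3 pairs, each in both groups), and chance alone sets apart about 1 group in 20. On the log2 scale Psmc5 was 10.18 in SKI606 1 (signal 1145), above 9.91 to 9.93 in the other SKI606 samples. Psmc6 was 8.41 in vehicle 4 (signal 325), below 9.15 to 9.24. Psmd9 was 8.52 in vehicle 4 (signal 351), above 7.94 to 8.02. Psme3 was 8.61 in SKI606 4 (signal 375), below 8.79 to 8.81. Psme3ip1 was 8.61 in vehicle 4 (signal 374), above 8.42 to 8.44.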

How the results depend on the processing

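In every setting run, 0 members had a limma adjusted p under 0.05, and the immune median stayed above the constitutive median, by 0.27 to 0.70. On the deposited ratios, where the median of all genes was 0.16, the constitutive median was 0.11, and the lists stood at -0.15 (assembly factors), 0.36 (proteasome gene transcription), 0.23 (p97) and 0.83 (interferon gamma axis). There Psmc3ip (0.07), Psmd4 (0.09), Psme3ip1 (0.26) and Ufd1 (0.09) turned above 0. Without the 3 samples of high squamous signal the constitutive median was -0.01, the assembly factors -0.18 and the interferon gamma axis 0.24, and Psmb3 (7.55e-06), Psmc2 (0.00212), Psmd6 (0.08), Psme4 (0.06), Uchl5 (0.08) and Ngly1 (0.09) turned above 0. The Psmb8 and Psmb9 pairs then differed by 0.55 and 0.41 (exact permutation p = 0.200). With all probe sets averaged, the transcription list was 0.20 and the Psmb8 pair 0.53 (exact permutation p = 0.0571). On the same averages Psmd2 was -0.10, Psmd4 0.30, Psme3 -0.04 and Uba6 0.02. Those of Psmd2, Psmd4 and Psme3 took in dim probe sets, of mean signal 8.23 for Psme3. The brightest of the 5 Uba6 probe sets had mean signals of only 62.6 in vehicle and 50.9 in SKI606 samples. Psme3ip1 was 0.02 with no quantile step, 0.01 with array weights and -0.03 to 0.04 with 1 sample left out (above 0 without vehicle 4, 0.04, SKI606 2, 0.03, and SKI606 4, 0.01). Leaving out 1 sample gave 0.46 to 0.91 for the Psmb8 pair, 0.51 to 0.97 for the Psmb9 pair, 0.35 to 0.64 for the Psmb10 pair and 0.07 to 0.20 for the transcription list. The cause of these shifts was not tested. Same-numbered samples did not deviate together (correlations of -0.27 to 0.132, and 0 of 8 samples closest to their own number). With 4 samples in each group this cannot decide whether the numbers pair samples, and the labels state no pairing. With the replicate number as a block, the pair differences stayed at 0.75 and 0.79 with exact p = 0.125, the smallest that test allows, and 0 genes passed in limma. Array weights were not run for the pairs. Dim probe sets limit the depth, since up to 41.65% of an array read below 10.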

Other observations

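The third and dimmest probe set of Psmd4, the ubiquitin receptor of the regulatory particle, read 10.2, 4.2, 5.6 and 1.6 in vehicle and 18.6, 24.0, 25.2 and 25.4 in SKI606 samples. Its groups did not overlap and its log2 fold change was 0.89 ± 0.16 (limma unadjusted p = 0.000235, adjusted p = 0.519 over all probe sets), on vehicle values near the floor of the arrays. The gene's other probe sets were bright: the brightest gave a log2 fold change of -0.14 ± 0.14 in the fit over all probe sets, and the second, with a mean signal of 578, gave 0.15 ± 0.19. The dim probe set was singled out after its values were seen.

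The letters CCGGAAG, which ETS factors bind, lay in the 250 bases before the start of 11 of 30 constitutive members and 0 of 4 immune members, against 7.83% of 27025 genes. The 11 were Psma6, Psmc1, Psmc2, Psmc6, Psmd2, Psmd4, Psmd6, Psmd11, Psmd12, Psme3 and Psme4. The CCAAT box lay in 12 of 30 constitutive members and in Psmb9, against 37.5% of all genes.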
